A study of Schizosaccharomyces japonicus with 6 samples.

Results

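Tj9 is one of the LTR retrotransposon families of the fission yeast *Schizosaccharomyces japonicus*, and its loci were taken as all entries of the deposited expression table whose name is Tj9 followed directly by - or _. This gave 51 of the 5152 loci in the table, and 51 of its 266 loci of the families Tj1 to Tj10. The type of each locus was read from its name. There were 3 full-length elements, 38 partial elements and 10 solo LTRs. Polyadenylated RNA was sequenced from 2 haploid strains grown in rich YES medium at 32 °C, with 3 libraries each. The dcr1Δ* strain carries dcr1-dis::natMX6, a disruption of the Dicer gene, and the missense allele mpe1-R77W. It is a single rare isolate, so effects of the 2 alleles cannot be told apart. Wild-type cells carry neither. Both strains share the alleles ura4-D3 and ade6(sj)-domE and the mating-type background h- mat-P2028. The authors' comparison of the strains was not used here. The values below are the authors' average for each locus over all 6 libraries of both strains, so they hold no difference between dcr1Δ* and wild-type cells, and a high average may come from either strain or from both. No SD is given because values per library were not used, and the depth of each library is unknown.

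LTR retrotransposons copy themselves through an RNA intermediate that is reverse transcribed and integrated at a new place. A full-length element has a long terminal repeat (LTR) at either end of an internal region that encodes Gag, protease, reverse transcriptase, RNase H and integrase. A solo LTR is what remains when recombination between both repeats removes the internal region, and a partial element is a truncated or interrupted copy. Tj9 belongs to the Ty3/Gypsy group, in the lineage related to Ty3 of budding yeast. In RNA interference, Dicer cuts double-stranded RNA into small RNAs that guide Argonaute to matching transcripts, and in fission yeasts these small RNAs can also direct methylation of histone H3 lysine 9.

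All but 2 of the 51 Tj9 loci had a level above that of loci without reads. The same held for 205 of the 215 loci of the other families, so this is not particular to Tj9. Levels are given as CPM, counts scaled to a common library total, obtained from the authors' log2 CPM (logCPM). The lowest logCPM of the table, −3.99, was shared by 15 loci and was taken as the level of loci without reads, which is 0.0628 CPM. It is above 0 because edgeR, the tool the authors used, adds a small prior count before taking logs. The 2 loci at this level were short partial elements, Tj9_partial_retrotransposon-1.8 of 104 bp and Tj9_partial_retrotransposon-18.1 of 197 bp. The other 3 of the 5 lowest loci were just above it. Tj9-type_LTR-8.2 had 0.0684 CPM, Tj9_partial_retrotransposon-1.7 had 0.0804 CPM and Tj9-type_LTR-2.4 had 0.110 CPM. In all, 13 Tj9 loci had under 1 CPM, 25 had between 1 and 10 CPM and 13 had at least 10 CPM. The median logCPM was 1.43, with quartiles of 0.02 and 3.37.

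The Tj9 loci together had 603.3 CPM, or 0.0602% of the CPM of all loci. This level was unevenly spread. Tj9-3, a full-length element on supercont5.3 from 854593 to 860527, had the highest level of the family at 66.7 CPM. It was followed by 4 partial elements. Tj9_partial_retrotransposon-2.4 had 58.9 CPM, Tj9_partial_retrotransposon-2.1 had 53.7 CPM, Tj9_partial_retrotransposon-3.1 had 48.3 CPM and Tj9_partial_retrotransposon-2.3 had 45.5 CPM. These 5 loci made up 21.5% of the summed Tj9 length and held 45.3% of the Tj9 CPM. The 10 highest loci held 77.4% on 49.6% of the length. Reads that map to several places were split into fractions, so copies that are alike in sequence share counts, and loci of the family are not independent of each other.

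**Figure D1:**
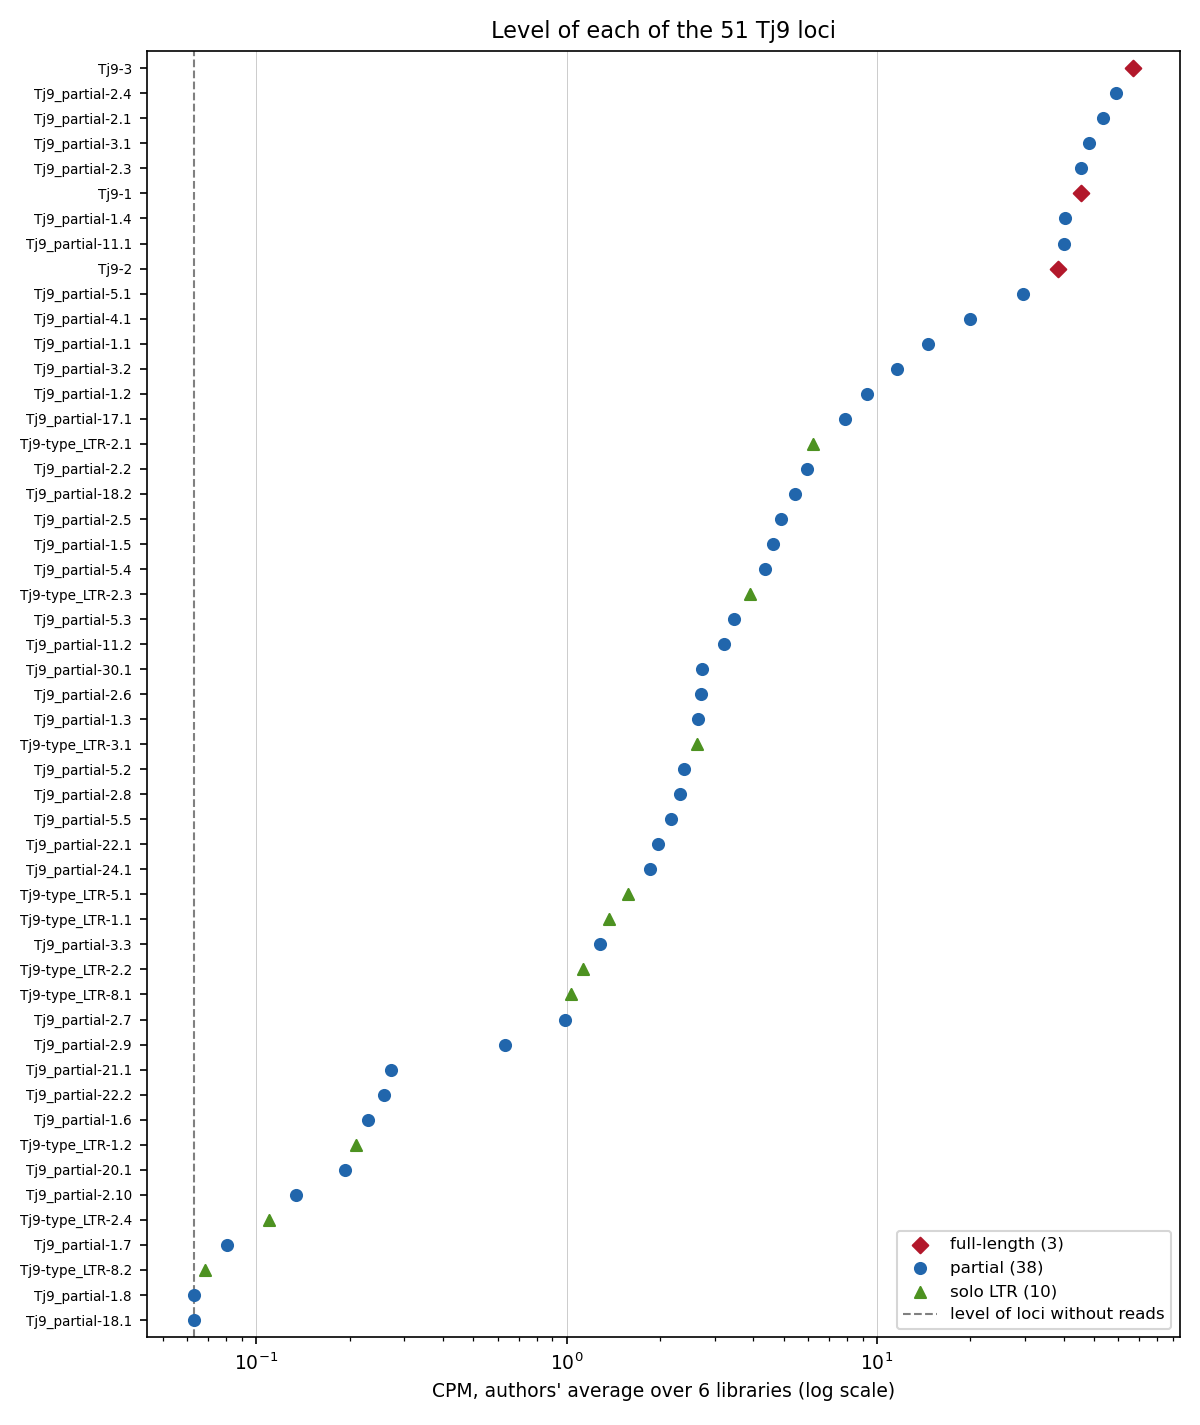
CPM of each of the 51 Tj9 loci, averaged by the authors over 6 libraries, on a log axis, with 1 point for each locus, its shape and colour for the element type, and a dashed line at the level of loci without reads. Names are shortened by the word retrotransposon. The 3 full-length elements lie between 38.2 and 66.7 CPM, and 2 partial elements lie on the dashed line.

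Longer Tj9 loci had higher levels. Across the 51 loci, Spearman's rho between length and logCPM was 0.82, given as a description because the loci share reads. A longer element collects more reads at the same transcript level, so levels were also divided by element length. On this scale, CPM per kb, rho was 0.45. Loci without reads keep the prior count when they are divided by length, so their CPM per kb depends on length alone. The 11 Tj9 loci under 300 bp had a median log2 CPM per kb of −0.28. The 20 loci from 300 bp to under 1 kb had a median of 2.01, the 11 loci from 1 kb to under 2 kb one of 1.75, and the 9 longer loci one of 2.69. Of the 31 Tj9 loci under 1 kb, 21 were partial elements and 10 were solo LTRs.

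**Figure D2:**
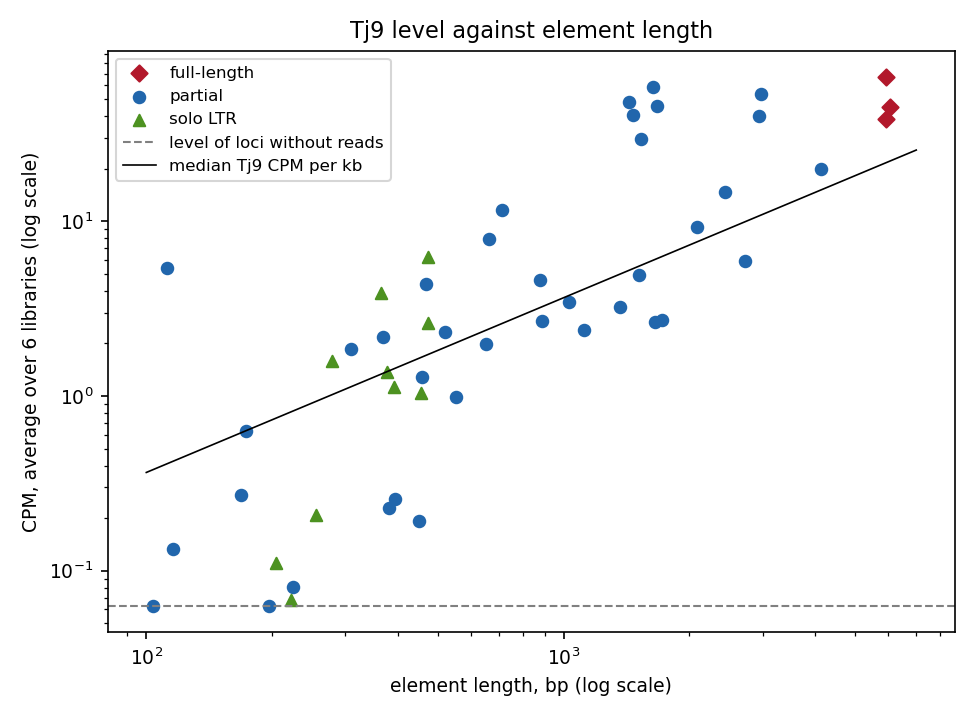
CPM averaged over 6 libraries against element length in bp for the 51 Tj9 loci, both on log axes, with 1 point for each locus. The solid line marks the family median of 3.65 CPM per kb and the dashed line the level of loci without reads. Loci of about the same length differ widely around the solid line.

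All 3 full-length Tj9 elements lay over the family median per length. Tj9-3 on supercont5.3 had 11.2 CPM per kb. Tj9-1, on supercont5.2 from 3844777 to 3850818, had 7.50 CPM per kb, and Tj9-2, on supercont5.2 from 1827864 to 1833799, had 6.44 CPM per kb. They are 5935, 6042 and 5936 bp long, and all lie on the minus strand. Among the 13 full-length elements of Tj1 to Tj10 they stood below Tj2-1, at 22.7 CPM per kb, and above the other 9. The next was Tj6-2 at 3.31 CPM per kb. The lowest was Tj4-1 at 0.0120 CPM per kb, and its 0.119 CPM is close to the level of loci without reads. Among the other families, the loci nearest to Tj9-3 in level per length were Tj8_partial_retrotransposon-2.2 at 11.6 CPM per kb, Tj10-type_LTR-5.2 at 10.6 CPM per kb and Tj5-type_LTR-2.2, which was higher than Tj9-3 by 0.09 on the log2 scale. Those nearest to Tj9-1 were Tj8_partial_retrotransposon-29.1, Tj2_partial_retrotransposon-8.1 and Tj1-type_LTR-1.2, between 7.22 and 7.65 CPM per kb. Those nearest to Tj9-2 were Tj8_partial_retrotransposon-24.1, Tj3_partial_retrotransposon-3.1 and Tj7_partial_retrotransposon-1.7, between 6.35 and 6.51 CPM per kb. None of these 9 is a full-length element.

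The partial elements covered nearly the whole range of the family. The 38 partial loci had a median of 1.81 in log2 CPM per kb. They ran from −1.65, at a locus with the level of loci without reads, to 5.60. They held 72.1% of the Tj9 CPM on 66.4% of its length. The full-length elements held 24.9% of the CPM on 28.1% of the length, and the solo LTRs 3.02% on 5.49%. The median log2 CPM per kb was 2.91 for full-length elements and 1.69 for solo LTRs. The partial median was higher than the solo LTR median by 0.11, a difference whose sign turned when loci under 300 bp were left out. The types were not tested against each other.

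Per length the highest Tj9 locus was Tj9_partial_retrotransposon-18.2, at 48.5 CPM per kb. It is only 112 bp long and had 5.43 CPM. It was followed by Tj9_partial_retrotransposon-2.4 at 36.0, Tj9_partial_retrotransposon-3.1 at 33.7, Tj9_partial_retrotransposon-1.4 at 27.5 and Tj9_partial_retrotransposon-2.3 at 27.1 CPM per kb. The last 4 are between 1435 and 1675 bp long and lie in 4 different clusters of elements on supercont5.1, supercont5.2 and supercont5.3. The highest solo LTR was Tj9-type_LTR-2.1 on supercont5.2 from 3831490 to 3831963, at 13.1 CPM per kb. Solo LTRs reached down to 0.308 CPM per kb at Tj9-type_LTR-8.2, whose 0.0684 CPM is close to the level of loci without reads.

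Most Tj9 loci were low beside other genes. The table holds 4886 loci outside Tj1 to Tj10, and 4878 of them have a length in RefSeq. Their median was 33.4 CPM per kb of gene, against 3.65 CPM per kb for Tj9. Only 3 Tj9 loci lay over the median of these genes, namely Tj9_partial_retrotransposon-18.2, Tj9_partial_retrotransposon-2.4 and Tj9_partial_retrotransposon-3.1. Tj9-3 was higher than 18.3% of them.

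Tj9 was the family with the most loci, 51 of 266 or 19.2%, and held 20.6% of the summed length of Tj1 to Tj10. It held 9.21% of their CPM and was the third by summed CPM, after Tj7 at 4060 CPM and Tj6 at 997.9 CPM. This share rested on Tj7, and with Tj7 left out of the total it was 24.3%. A single locus, Tj7_partial_retrotransposon-1.1, had 2918 CPM. Tj8 followed it at 373.3 CPM and Tj2 at 308.0 CPM. With the summed CPM divided by the summed length, Tj9 had 9.48 CPM per kb and was the fifth, behind Tj7, Tj6, Tj2 and Tj8. By the median over loci, its log2 CPM per kb of 1.87 was the third, below Tj7 at 2.70 and Tj2 at 1.93 and above Tj6 at 1.73. The median of the 215 loci of the other families was −0.17. Of the Tj9 loci, 42 (82.4%) lay over that median. The medians of Tj1, Tj2, Tj6, Tj7 and Tj8 also lay over it, so this is not particular to Tj9. In logCPM, 38 of 51 Tj9 loci (74.5%) were at 0 or more, against 85 of 215 loci (39.5%) of the other families. Those families differed widely. Tj7, with 14 of 22 loci, and Tj6, with 17 of 27, were nearest to Tj9, and Tj10, with 4 of 36, and Tj4, with 0 of 13, were the lowest. The highest Tj9 locus stood at 5.60 in log2 CPM per kb, against 10.02 for the highest locus of Tj7, 6.78 for that of Tj6 and 6.39 for that of Tj8. These differences between families were not tested, because loci share reads and only 1 average a locus was used.

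**Figure D3:**
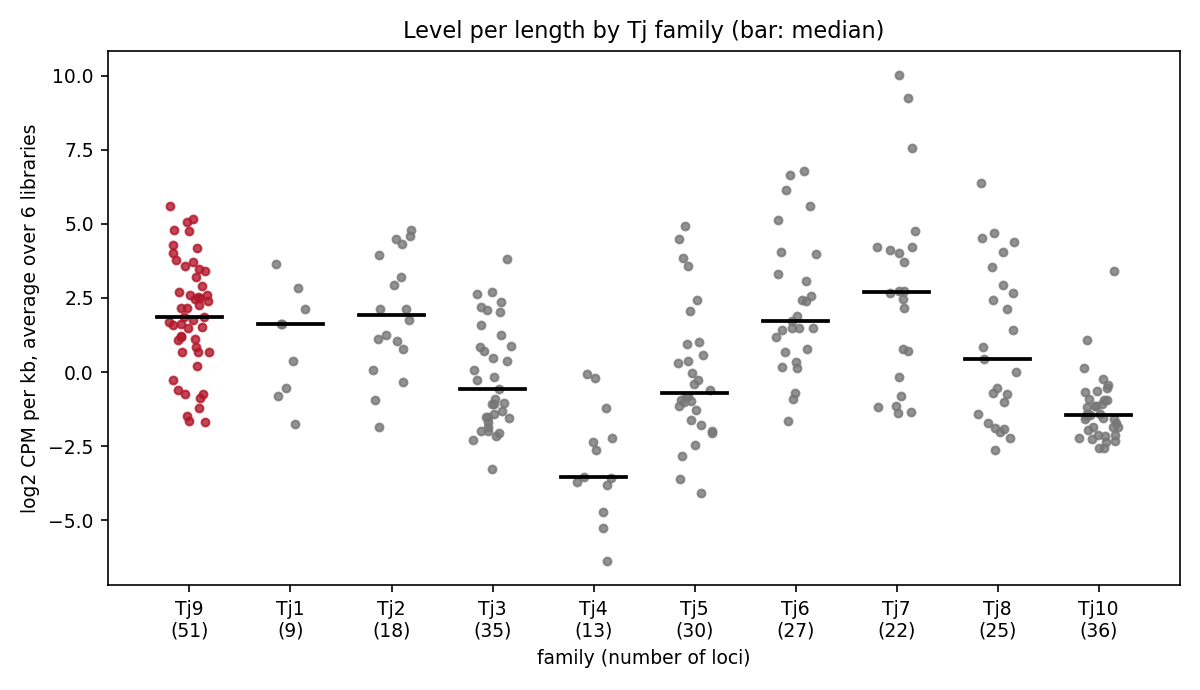
Log2 CPM per kb, averaged over 6 libraries, of each locus of Tj9 (red) and of the other 9 families (grey), with the number of loci under each name and a black bar at the median. The Tj9 median of 1.87 lies beside those of Tj2 (1.93) and Tj6 (1.73).

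The 51 Tj9 loci lie on 14 contigs of the SJ5 assembly. Supercont5.2 had 16 loci, supercont5.1 had 10, supercont5.5 had 6 and supercont5.3 had 5. The other 14 lie on 10 other contigs with 1 or 2 each. Supercont5.2 held 44.8% of the Tj9 CPM, supercont5.3 held 21.6% and supercont5.1 held 12.2%. Their shares of the Tj9 length were 41.1%, 14.2% and 15.5%. On supercont5.2 Tj9 made up 79.4% of the CPM of all Tj1 to Tj10 loci, and on supercont5.3 53.2%. On supercont5.1, which holds 77 Tj1 to Tj10 loci, its share was 1.73%. This low share rested largely on Tj7_partial_retrotransposon-1.1, which lies on supercont5.1 and had 2918 CPM. The highest partial element of supercont5.1 was Tj9_partial_retrotransposon-1.4, at 40.3 CPM, and that of supercont5.5 was Tj9_partial_retrotransposon-5.1, at 29.6 CPM. The highest solo LTRs of supercont5.1, supercont5.3 and supercont5.5 were Tj9-type_LTR-1.1 at 1.37 CPM, Tj9-type_LTR-3.1 at 2.63 CPM and Tj9-type_LTR-5.1 at 1.58 CPM. Because copies share reads and the assembly lacks parts of the TE-rich regions, the place to which a count is assigned need not be the place where the RNA was made.

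Tj9 loci lie among other elements. Elements of Tj1 to Tj21 no more than 50 kb from the next were joined, and a run of at least 5 was taken as a cluster. In all, 45 of the 51 Tj9 loci (88.2%) lay in 14 of the 20 clusters. Most loci of the other families Tj1 to Tj10 also lay in clusters, so this is not particular to Tj9. The 45 Tj9 loci held 98.8% of the Tj9 CPM on 60146 of the 63645 bp of the family. Their median log2 CPM per kb was 2.16. The 6 loci outside clusters had a median of 0.67. Of these 6, 5 lie on contigs without a cluster, and the remaining locus is Tj9-type_LTR-1.2 on supercont5.1 from 3511108 to 3511362, at 0.210 CPM. The 5 clusters with at least 5 Tj9 loci hold 31 loci and 84.6% of the Tj9 CPM.

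Within a cluster, Tj9 loci could have very different levels. The richest lies on supercont5.2 between 3826981 and 3866997. Its 10 Tj9 loci had 176.8 CPM, which is 87.5% of the CPM of its 19 Tj1 to Tj10 loci. They ran from −0.89 at Tj9-type_LTR-2.4 to 5.17 at Tj9_partial_retrotransposon-2.4 in log2 CPM per kb. A second cluster on supercont5.2, from 1827054 to 1852184, holds Tj9-2 and 4 other Tj9 loci with 91.4 CPM in all. The cluster on supercont5.3, from 849083 to 868555, holds Tj9-3 and 4 other Tj9 loci with 130.5 CPM in all. A cluster on supercont5.1 from 1981079 to 2001867 has no full-length Tj9 element. Its 5 Tj9 loci had 68.3 CPM, which is 39.9% of the CPM of its 12 Tj1 to Tj10 loci. The 6 Tj9 loci of the supercont5.5 cluster had 43.5 CPM. A cluster on supercont5.1 from 1772863 to 1861017 holds 40 Tj1 to Tj10 loci with 4045 CPM in all, and its only Tj9 locus, Tj9_partial_retrotransposon-1.5, had 4.64 CPM.

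**Figure D4:**
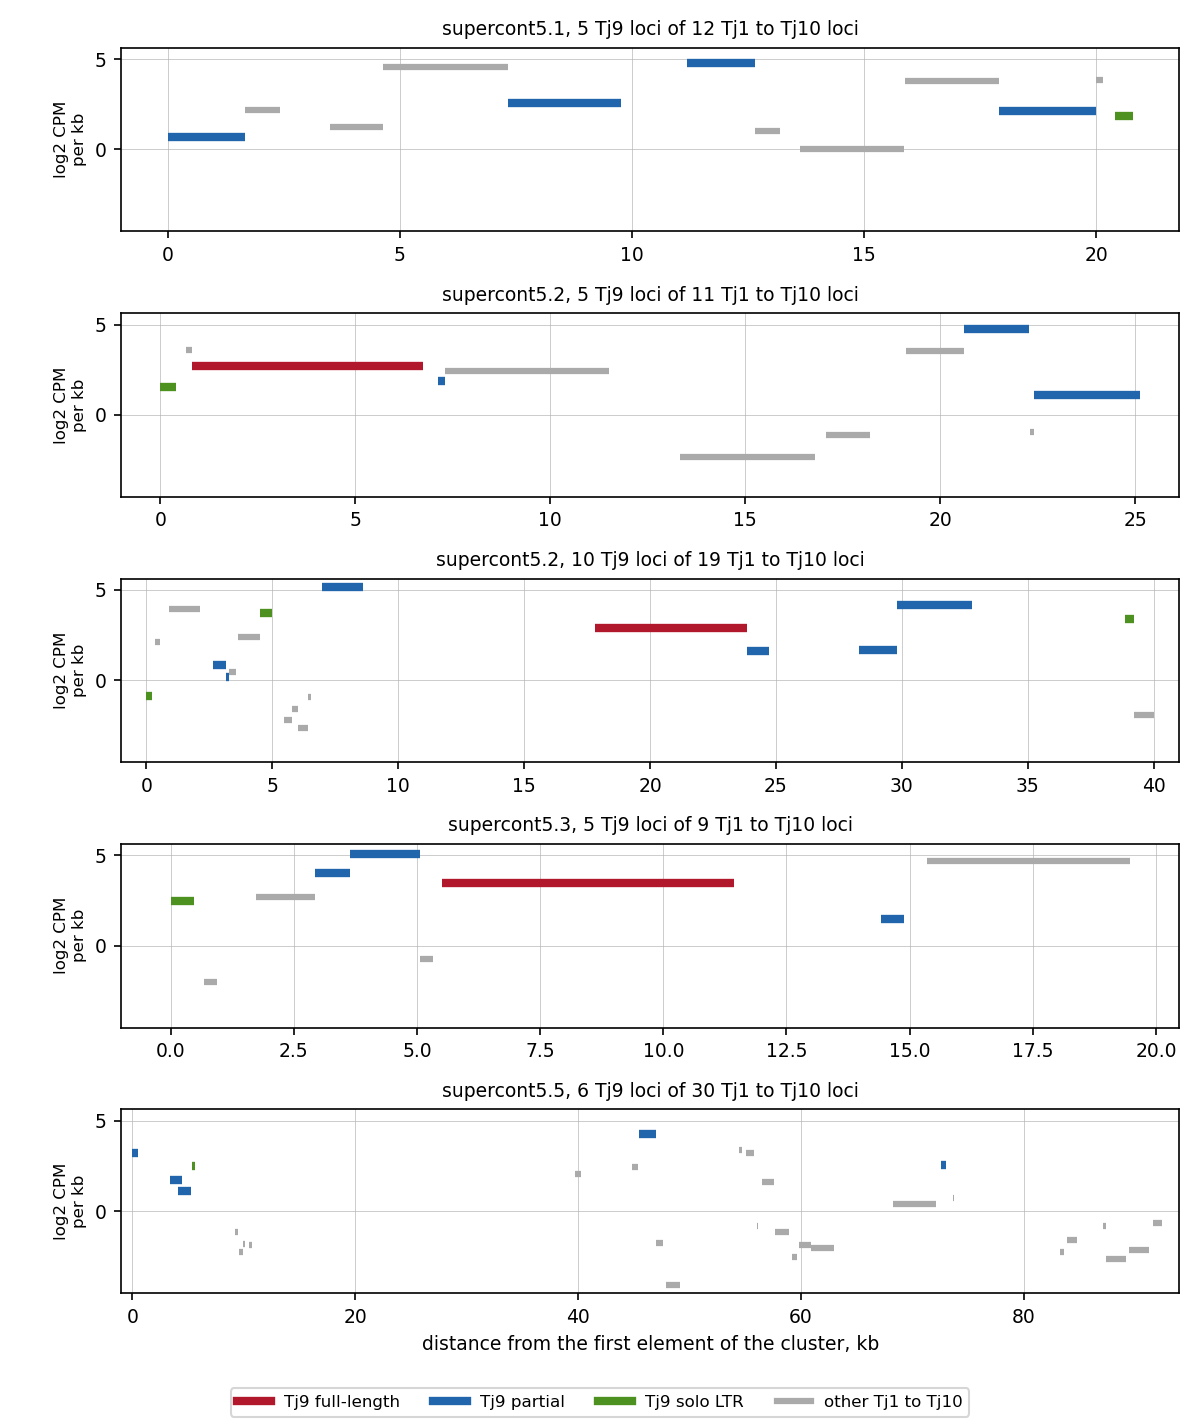
Log2 CPM per kb, averaged over 6 libraries, along the 5 clusters with at least 5 Tj9 loci, against distance in kb from the first element, with each bar drawn to the length of its element. Tj9 elements are coloured by type and other Tj1 to Tj10 elements are grey. Tj9 bars of 1 cluster reach from below 0 to above 5 on supercont5.2.

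Tj9 loci often touch elements of other families. Of the 50 Tj9 loci that share a contig with another family, 33 lay within 10 bp of one of its elements and 41 within 200 bp. These distances were not counted for loci of the other families, so they are not read as particular to Tj9. Direct overlaps were few and short. There were 10, at 9 Tj9 loci, of at most 6 bp. They join Tj9_partial_retrotransposon-1.8 to Tj10_partial_retrotransposon-1.5, Tj9_partial_retrotransposon-1.3 to Tj3_partial_retrotransposon-1.4, and Tj9_partial_retrotransposon-2.9 to Tj16_partial_retrotransposon-2.1. Tj9_partial_retrotransposon-1.1 and Tj9_partial_retrotransposon-17.1 overlap Tj8 elements, Tj9_partial_retrotransposon-4.1, Tj9_partial_retrotransposon-5.1 and Tj9_partial_retrotransposon-11.2 overlap Tj5 elements, and Tj9_partial_retrotransposon-2.8 overlaps Tj5 and Tj18 elements. The levels on both sides of such a junction could differ widely. Tj9_partial_retrotransposon-5.1 had 19.3 CPM per kb and the Tj5_partial_retrotransposon-5.2 element beside it had 0.291 CPM per kb. At Tj9_partial_retrotransposon-1.1 the order was the other way, with 5.99 CPM per kb for Tj9 and 23.2 CPM per kb for Tj8_partial_retrotransposon-1.1.

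Tj9 loci also lie beside each other, and 9 pairs overlap or lie within 200 bp. In 7 of these pairs the levels per kb differed by over 2-fold. Over all Tj9 loci the quartiles of log2 CPM per kb were 0.76 and 3.32, so loci that are not neighbours also differ widely. Pairs of Tj9 loci that are not neighbours were not counted, so this is not read as particular to neighbours. Tj9_partial_retrotransposon-2.1 and Tj9_partial_retrotransposon-2.5 overlap by 3 bp on opposite strands and had 18.1 and 3.24 CPM per kb. Tj9_partial_retrotransposon-3.1 and Tj9_partial_retrotransposon-3.2 overlap by 1 bp on opposite strands and had 33.7 and 16.3 CPM per kb. Tj9_partial_retrotransposon-2.3 and Tj9_partial_retrotransposon-2.2 lie 125 bp apart on the same strand and had 27.1 and 2.19 CPM per kb. The full-length Tj9-1 lies 16 bp from Tj9_partial_retrotransposon-2.6 on the opposite strand, and they had 7.50 and 3.04 CPM per kb. Tj9_partial_retrotransposon-22.1 and Tj9_partial_retrotransposon-22.2 had 3.03 and 0.654 CPM per kb, and the latter had only 0.258 CPM. Tj9_partial_retrotransposon-18.2 had 48.5 CPM per kb and its neighbour Tj9_partial_retrotransposon-18.1 was at the level of loci without reads. Tj9-type_LTR-5.1 had 5.69 CPM per kb beside 2.13 CPM per kb at Tj9_partial_retrotransposon-5.2. The 2 pairs under 2-fold were Tj9_partial_retrotransposon-5.3 with Tj9_partial_retrotransposon-5.2, which overlap by 311 bp, and Tj9_partial_retrotransposon-2.7 with Tj9_partial_retrotransposon-2.10. How reads over an overlap were counted is not given in the sources used here.

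Elements lie on both strands, 27 of the 51 Tj9 loci on the plus strand and 24 on the minus strand. The minus-strand loci, which include all 3 full-length elements, held 61.7% of the Tj9 CPM on 35233 of the 63645 bp of the family. Their median log2 CPM per kb was 2.36, against 1.69 for the plus strand. In median logCPM the order was the other way, with 1.17 on the minus strand and 1.45 on the plus strand. On the minus strand 9 of 24 loci had a logCPM under 0, against 4 of 27 on the plus strand. The strands were not tested against each other. The library kit keeps the strand of the RNA, but whether the counting used it is not given in the sources used here, so antisense RNA may be part of these levels.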

How the data were processed

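RNA was sequenced in 3 dcr1Δ* and 3 wild-type libraries (TruSeq stranded mRNA kit, paired-end), grouped by their titles. Per the submitters' processing notes, reads were trimmed with Trim Galore 0.4.3.1, aligned with STAR 2.7.2b, counted with featureCounts 2.0.1 and analysed with edgeR 3.34.0. The paper names other versions of featureCounts and edgeR. Per the paper, reads mapping to several places were counted as fractions, on the SJ5 assembly. The deposited table holds a log2 CPM averaged by the authors over all 6 libraries, whose normalization and prior count are not given in the sources used here. The CPM of all loci summed to 1.00e+06. Its 4 other numeric columns (fold change, F statistic, p-value, false discovery rate) hold the authors' comparison of the strains and were not used, so no test was made and no replicate spread or interval is given. The column used is not split by library, so no library was left out.

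Element positions came from the study's table of TE coordinates, where 5 starts are 0. The starts were therefore taken as 0-based and are printed 1-based. Lengths of other genes came from RefSeq (SJ5), matched by locus tag. The members and lists were chosen with earlier results of these data known. The text names full-length Tj9 elements, the 5 highest and lowest loci, the 5 highest per kb, the highest partial element and solo LTR of each contig with at least 3 Tj9 loci, neighbouring loci, overlapped elements and the 3 loci nearest in level to each full-length element. Tj9-type_LTR-1.2 and Tj9_partial_retrotransposon-1.5 were named after their values were seen, as were Tj2-1, Tj6-2, Tj4-1 and Tj7_partial_retrotransposon-1.1. Only the division by length and the joining of elements into clusters were checked on simulated data. Calculations used Python 3.11.15, numpy 2.4.6, pandas 2.3.3, scipy 1.17.1 and matplotlib 3.10.9. No genome sequence was used.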

Additional observations from a re-analysis of the deposited data

How the results depend on the processing

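No paired analysis was possible because the values are averages over all 6 libraries and carry no replicate number. For the same reason no replicate could be left out. The levels do not separate dcr1Δ* from wild-type cells, and the precision set by depth is unknown. Among 22 alternatives to 9 results, counts of loci moved little. Above 2 times the level of loci without reads lay 46 Tj9 loci, and 45 lay in clusters with gaps of 20 or 100 kb. Of the 41 loci that are not solo LTRs, 39 lay above the level of loci without reads itself. With the level of loci without reads subtracted, the summed Tj9 CPM was 600.1, its share of Tj1 to Tj10 CPM 9.19%, the share of the 5 highest loci 45.5%, the median log2 CPM per kb 2.12, the partial minus solo LTR difference 0.30 and the full-length minus partial difference 0.98. Without solo LTRs the sum was 585.1 CPM, the share 9.06% and the median logCPM 1.79. With a logCPM of at least 0 (38 loci) the sum was 599.99 CPM and the median 2.26. With loci of at least 300 bp (40 loci) the median log2 CPM per kb was 2.34, the full-length minus partial difference 0.74 and the partial minus solo LTR difference reversed to −0.0054. That comparison then rests on 31 partial elements and 6 solo LTRs. With no division by length these differences were 3.94 and 1.25. The Tj9 share was 24.3% without Tj7 in the total and 11.7% with CPM per kb summed.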

Other observations

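Partial Tj9 elements of nearly the same length fell into separate ranges of level. This length window was chosen after the values were seen, and the line between the ranges was set by hand. There are 9 partial Tj9 loci from 1300 to 1800 bp. Of these, 5 had between 19.3 and 36.0 CPM per kb, and together they held 36.9% of the Tj9 CPM. The other 4 had between 1.59 and 3.24 CPM per kb. The upper 5 are Tj9_partial_retrotransposon-2.4, Tj9_partial_retrotransposon-3.1, Tj9_partial_retrotransposon-1.4, Tj9_partial_retrotransposon-2.3 and Tj9_partial_retrotransposon-5.1, on 4 contigs and on both strands. The lower 4 are Tj9_partial_retrotransposon-2.5, Tj9_partial_retrotransposon-11.2, Tj9_partial_retrotransposon-1.3 and Tj9_partial_retrotransposon-30.1. Which part of the element each of them keeps was not analysed here. Outside the window the ranges were not separate. Among longer partial elements, Tj9_partial_retrotransposon-4.1 at 4.85, Tj9_partial_retrotransposon-1.1 at 5.99 and Tj9_partial_retrotransposon-2.1 at 18.1 CPM per kb lay between them. Tj9_partial_retrotransposon-2.2, at 2.19 CPM per kb, lay in the lower range.

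The gap between neighbouring Tj9 loci was 116 bp in 3 places on different contigs. It separates Tj9_partial_retrotransposon-5.2 from Tj9-type_LTR-5.1, Tj9_partial_retrotransposon-18.1 from Tj9_partial_retrotransposon-18.2, and Tj9_partial_retrotransposon-22.1 from Tj9_partial_retrotransposon-22.2. In each pair both loci lie on the plus strand.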
